A study of Mus musculus with 34 samples.

Results

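The acetylated enhancer and promoter mark H3K27ac and elongating RNA polymerase II (Pol2S2P) were compared in 100 C2C12 cells in which both targets had been stained together. C2C12 is an immortal mouse myoblast line. The comparison holds 6 of the 34 samples of a multi-target chromatin integration labelling (mtChIL-seq) study, chosen by their titles: 3 libraries read from the H3K27ac antibody and 3 read from the Pol2S2P antibody of the same H3K27ac and Pol2S2P staining. No drug, genotype or time point separates the groups, so the antibody target is the only labelled difference between them. A matching set of 6 libraries from 1000 cells, made with the same staining, served for comparison and shares no library with the 100-cell set. Libraries of the promoter mark H3K4me3, from 1000 C2C12 cells or more stained together for H3K4me3 and CTCF, served to place and class gene starts. Their counts were summed.

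H3K27ac is a modification of nucleosomes at active promoters and enhancers, where it is read by bromodomain proteins that help recruit the transcription machinery. The largest subunit of RNA polymerase II carries a long repetitive tail, and phosphorylation of serine 2 in that tail accumulates as the enzyme moves through a gene and past its polyadenylation site. The H3K27ac antibody, CMA309, and the Pol2S2P antibody, CMA602, are both mouse monoclonals. In the method a DNA-linked probe binds the primary antibody, the transposase Tn5 inserts the probe's DNA into chromatin close by, and transcription from the inserted DNA copies the neighbouring genome into RNA, which is sequenced.

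Each H3K27ac library held 1158754 to 1302176 counts on the autosomes and X, and each Pol2S2P library held 1255432 to 1580089. Values are given as counts per 1000000 of the library's total (CPM) or as multiples of the genome mean per 1 kb bin. A higher value therefore means a larger share of that library, and a fold between the targets compares shares, not numbers of molecules on the DNA. Nothing in the labels says that the 3 replicates came from separate cultures, so the tests measure the spread between these libraries, which may be technical.

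The myoblast label was set against marker genes at their starts, the 3 bins around the position where transcription begins. Myf5, which commits cells to the muscle lineage, held 52 counts in the H3K27ac libraries together and 6 in the Pol2S2P libraries. The myoblast regulator Myod1 held only 3 and 6 counts and could not be tested, and the satellite cell factor Pax7 held 1 and 8. Vim, the mesenchymal intermediate filament, reached 21.3 ± 5.22 times the genome mean in H3K27ac and 11.8 ± 1.06 in Pol2S2P (SD, n = 3 each). Over all 16 blood, liver and neuronal markers, starts held 1.15 ± 0.25 times the genome mean in H3K27ac and 0.922 ± 0.317 in Pol2S2P. The neuronal gene Syt1 held 0 counts at its start in all 6 libraries, and the liver gene Apob held 27 counts in H3K27ac and 3 in Pol2S2P. Genes of differentiated muscle were low as well, with 4 and 5 counts at the start of Myog.

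The targets divided the genome differently. Gene interiors, the bins more than 2 kb inside both ends of protein-coding genes of at least 5 kb, made up 35.7% of bins. They took 44.5%, 44.6% and 44.8% of the H3K27ac counts and 49.3%, 48.9% and 49.3% of the Pol2S2P counts. The groups did not overlap, and the difference was -4.54 percentage points for H3K27ac minus Pol2S2P. Bins outside genes and starts took 46.9 ± 0.259% of H3K27ac counts and 41.5 ± 0.269% of Pol2S2P counts (SD, n = 3 each). Each of the 5 such differences in this paragraph and the next had an exact two-sided permutation p of 0.1, the smallest that 3 libraries against 3 can give.

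Gene starts took 5.1%, 5.29% and 5.2% of H3K27ac counts and 4.76%, 4.84% and 4.86% of Pol2S2P counts, a difference of 0.378 percentage points. That difference turned to -0.963 when both ends of every gene were counted in place of the start. The H3K27ac counts were also more concentrated: the top 1% of 10 kb windows, ranked within each library, held 11.3 ± 0.201% of them against 7.75 ± 0.15% for Pol2S2P. The region up to 5 kb past the downstream end was set against the interior of the same genes, in 3136 genes of at least 20 kb with no neighbour within 10 kb. This ratio was 1.02 ± 0.0166 for H3K27ac and 1.36 ± 0.0215 for Pol2S2P.

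The averaged profile along such isolated genes shows where the targets part. In the 1338 of them whose start held at least 50 counts in the study's H3K4me3 libraries, a mark of active promoters, H3K27ac rose to 4.48 ± 0.12 times the genome mean in the bin just inside the start. Pol2S2P reached 3.28 ± 0.122 in that bin. By the last of 5 equal parts of the interior H3K27ac had come down to 1.66 ± 0.00964, and Pol2S2P stood at 1.97 ± 0.0169. Around the downstream end Pol2S2P was highest 2 bins outside the gene, at 2.69 ± 0.0545, where H3K27ac stood at 1.64 ± 0.0652. At 10 bins out, Pol2S2P was at 1.86 ± 0.0319 and H3K27ac at 1.46 ± 0.0922. In the 1379 isolated genes with under 10 H3K4me3 counts at the start, both targets stayed between 0.357 and 0.74 times the genome mean at every position plotted.

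**Figure D1:**
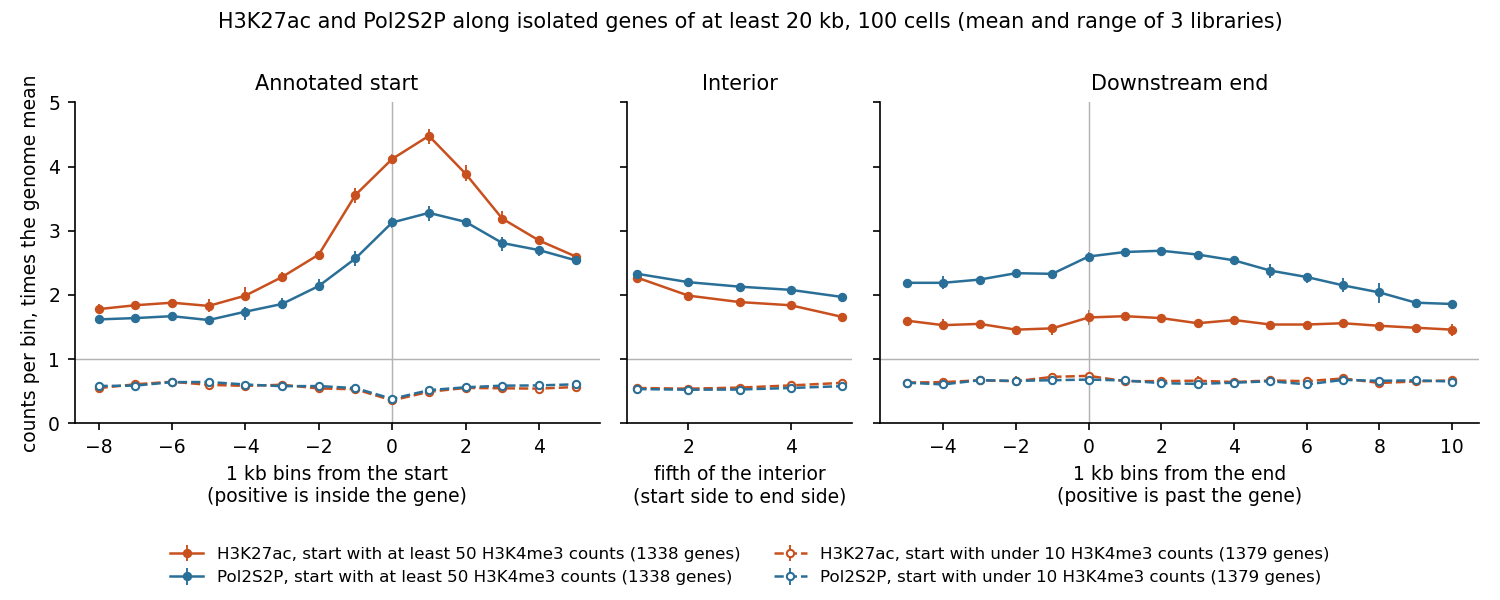
Counts per 1 kb bin along isolated protein-coding genes of at least 20 kb, as multiples of each library's genome mean, at the annotated start, in 5 equal parts of the interior and at the downstream end. Points are means of 3 libraries and bars their range, filled points are the 1338 genes with at least 50 H3K4me3 counts at the start and open points the 1379 genes with under 10, and beside the start H3K27ac reaches 4.48 and Pol2S2P 3.28, while past the end Pol2S2P has a lower second peak of 2.69 and H3K27ac stands at 1.64.

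At single gene starts the comparison asked which promoters held a larger share of one target than of the other. A start was the 3 bins within 1 kb of the annotated position for 17274 genes. For 3902 genes with no annotated position in the tables used, the gene end with more H3K4me3 counts took its place, called the marked end here, which can be the downstream end. Among genes with an annotated start, the marked end was the 5′ end in 72.7%. Only 1353 starts had enough counts to be tested, and a start could pass that filter through 1 group alone.

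Of those 1353 starts, 397 (29.3%) differed at an adjusted p under 0.05 in edgeR's quasi-likelihood test. H3K27ac was higher at 321 (23.7%) and Pol2S2P at 76 (5.62%), and the median log2 fold over all starts tested was 0.44. With TMM scaling, which sets the bulk of the tested starts equal, that median became -0.01 and 227 starts were called, 99 higher in H3K27ac and 128 higher in Pol2S2P. DESeq2 called 122, of which 34 were higher in H3K27ac. Leaving out the second H3K27ac library brought the count to 233, of which 166 were higher in H3K27ac. With both gene ends counted in place of the start, 675 were called, 249 higher in H3K27ac and 426 in Pol2S2P. The direction of the majority thus turned with the scaling and with the gene ends counted. Without the count filter the median over 20095 starts was 0.01, and 276 were called, 192 higher in H3K27ac and 84 in Pol2S2P. The median of 0.44 thus describes only the 1353 starts that passed the filter. Folds at starts are read below against that median of 0.44.

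The starts named next are the 6 with the largest fold in each direction, among those where each library of the group with more signal held 20 counts or more. The sequences below are those of the 6 with an annotated start, because they let the promoters of the opposite groups be read side by side. Each runs from 250 bases before the start to 50 bases after it, 5′ to 3′ on the gene's own strand, from RefSeq on GRCm38.p6. Capitals mark matches on either strand to 4 motifs. They are TATAAA, known as the TATA box, then CCAAT, which NF-Y binds, then GGGCGG, which Sp1 and related factors bind, and lastly TGANTCA, the motif of AP-1 factors.
Tm4sf1 (chr3:57301939-57302238, minus strand): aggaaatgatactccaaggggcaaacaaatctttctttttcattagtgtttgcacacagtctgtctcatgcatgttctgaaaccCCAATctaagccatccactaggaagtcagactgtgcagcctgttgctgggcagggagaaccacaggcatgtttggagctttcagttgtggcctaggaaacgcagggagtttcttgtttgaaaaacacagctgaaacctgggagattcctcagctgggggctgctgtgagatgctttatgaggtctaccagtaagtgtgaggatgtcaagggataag
Tnni3k (chr3:155055358-155055657, minus strand): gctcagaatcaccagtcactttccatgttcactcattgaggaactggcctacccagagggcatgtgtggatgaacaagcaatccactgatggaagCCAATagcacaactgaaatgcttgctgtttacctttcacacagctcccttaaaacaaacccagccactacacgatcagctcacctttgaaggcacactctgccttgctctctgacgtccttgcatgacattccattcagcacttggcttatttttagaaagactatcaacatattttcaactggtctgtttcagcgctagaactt
Col3a1 (chr1:45311288-45311587, plus strand): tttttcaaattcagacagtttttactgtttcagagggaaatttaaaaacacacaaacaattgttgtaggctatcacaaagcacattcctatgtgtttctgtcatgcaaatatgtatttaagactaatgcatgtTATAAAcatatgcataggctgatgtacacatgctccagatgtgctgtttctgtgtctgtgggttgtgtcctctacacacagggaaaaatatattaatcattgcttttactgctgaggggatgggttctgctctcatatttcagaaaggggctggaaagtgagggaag
Ccnb1ip1 (chr14:50795679-50795978, minus strand): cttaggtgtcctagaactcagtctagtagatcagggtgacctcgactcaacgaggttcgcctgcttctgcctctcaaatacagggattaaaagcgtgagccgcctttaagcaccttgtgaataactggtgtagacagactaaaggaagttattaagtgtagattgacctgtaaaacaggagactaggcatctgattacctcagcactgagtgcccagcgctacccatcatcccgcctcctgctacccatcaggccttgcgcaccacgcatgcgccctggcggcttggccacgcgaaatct
Nat10 (chr2:103761221-103761520, minus strand): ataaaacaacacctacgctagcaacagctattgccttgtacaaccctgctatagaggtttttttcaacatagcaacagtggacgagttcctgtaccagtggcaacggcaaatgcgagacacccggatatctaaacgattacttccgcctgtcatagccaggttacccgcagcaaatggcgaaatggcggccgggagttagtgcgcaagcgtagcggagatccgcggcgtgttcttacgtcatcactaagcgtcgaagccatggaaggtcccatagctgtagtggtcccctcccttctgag
Zfp143 (chr7:110061452-110061751, plus strand): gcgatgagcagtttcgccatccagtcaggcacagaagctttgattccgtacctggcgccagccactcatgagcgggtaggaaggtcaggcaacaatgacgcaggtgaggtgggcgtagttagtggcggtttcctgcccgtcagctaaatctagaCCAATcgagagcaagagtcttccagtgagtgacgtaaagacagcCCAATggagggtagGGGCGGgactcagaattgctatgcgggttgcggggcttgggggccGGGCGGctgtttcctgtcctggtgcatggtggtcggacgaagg

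The H3K27ac-rich promoters printed above were poor in the dinucleotide CpG, with 1 in Tm4sf1, 3 in Tnni3k and 0 in Col3a1, and their GC content was 47.3%, 45.3% and 37.7%. The Pol2S2P-rich promoters held 13 CpG in Ccnb1ip1, 20 in Nat10 and 18 in Zfp143, at 52%, 52% and 58.7% GC. The starts of Tm4sf1, Tnni3k and Ccnb1ip1 held only 34, 33 and 23 H3K4me3 counts. Those of Col3a1, Nat10 and Zfp143 held 384, 298 and 272. The averaged profile asked for at least 50 in its H3K4me3-marked genes. Whether the starts below that cut are promoters in use in these cells was not tested. The printed sequences may therefore not all be active promoters. Over all called starts the median CpG count was 17 in the 251 annotated starts higher in H3K27ac, 19 in the 55 higher in Pol2S2P and 23 in the 782 tested without a call. Promoters with 5 or fewer CpG made up 16.7%, 9.09% and 3.84% of these sets, against 31.7% of all 17274 annotated promoters. TATAAA was found in 12% of the H3K27ac-higher set, 7.27% of the Pol2S2P-higher set, 7.16% of the set without a call and 13.4% of all promoters. In the same order TGANTCA was found in 9.96%, 16.4%, 5.88% and 7.18%, CCAAT in 31.9%, 54.5%, 39.9% and 39.3%, and GGGCGG in 58.6%, 65.5%, 69.2% and 47.1%. For TATAAA and GGGCGG the H3K27ac-higher set thus lies between the set without a call and all promoters. These shares are descriptions and carry no test.

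Tm4sf1, which encodes a membrane protein of the tetraspanin-like family, held 26.9, 15.4 and 24.2 CPM of H3K27ac at its start. Pol2S2P held 3.16, 2.54 and 0.797 CPM there. Every H3K27ac library lay far above every Pol2S2P library, and the log2 fold was 3.24 (SE 0.46, adjusted p = 3.15e-06). Tnni3k, a heart-enriched kinase named for its binding of troponin, held 18.4, 26.9 and 34.5 CPM of H3K27ac and 3.16, 0.635 and 4.78 CPM of Pol2S2P. Its groups were as far apart, with a log2 fold of 3.23 (SE 0.44).

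Col3a1, a fibrillar collagen chain, held 21.5, 19.2 and 31.9 CPM of H3K27ac and 1.27, 4.44 and 7.97 CPM of Pol2S2P at its start, a log2 fold of 2.44 (SE 0.42, adjusted p = 6.83e-05). Its interior had no call: the same gene held 46.6 ± 8.76 CPM of H3K27ac and 44.1 ± 7 CPM of Pol2S2P (SD, n = 3 each) there, with a log2 fold of 0.08 beside the median of -0.31 for all interiors and an adjusted p of 0.778. Start and interior were not tested against each other. The remaining H3K27ac-higher genes of this rank were placed by their marked end. Wfdc1, a secreted protease inhibitor, had a log2 fold of 2.94. Krt80, a keratin, had one of 2.3, and Ccn4, a secreted matrix-associated signalling protein, one of 2.22. Their chosen ends held 54, 151 and 597 H3K4me3 counts against 3, 6 and 18 at the opposite ends.

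Nat10, an RNA acetyltransferase, was among the promoters richer in elongating polymerase. Its start held 22.8, 13.3 and 22.3 CPM of Pol2S2P and 4.61, 3.85 and 2.59 CPM of H3K27ac. The groups did not overlap, and the log2 fold was -2.35 (SE 0.43, adjusted p = 0.000185). Ccnb1ip1, a ubiquitin ligase known from meiotic recombination, held 12.7, 14 and 15.9 CPM of Pol2S2P and 1.54, 1.54 and 2.59 CPM of H3K27ac, a log2 fold of -2.86. Zfp143, a zinc-finger activator of many promoters, held 13.3, 17.1 and 20.7 CPM against 2.3, 4.62 and 4.31 CPM, a log2 fold of -2.16. The vesicle release factor Doc2b, placed by its marked end, had a log2 fold of -1.77.

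Actb and Ywhaz, which encode cytoplasmic actin and a 14-3-3 adaptor protein, also ranked here, but their ends cannot be told apart well. The chosen end of Actb held 38, 39.4 and 38.2 CPM of Pol2S2P and 6.91, 13.1 and 7.77 CPM of H3K27ac, a log2 fold of -2.04 (SE 0.3). That end had 228 H3K4me3 counts and the opposite end 220. At the opposite end the order was the reverse, with 18.9 ± 0.373 CPM of H3K27ac and 8.83 ± 2.97 CPM of Pol2S2P (SD, n = 3 each). The chosen end of Ywhaz had 38 H3K4me3 counts and the opposite end 20, and its log2 fold was -1.79. Neither value is a statement about a promoter.

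**Figure D2:**
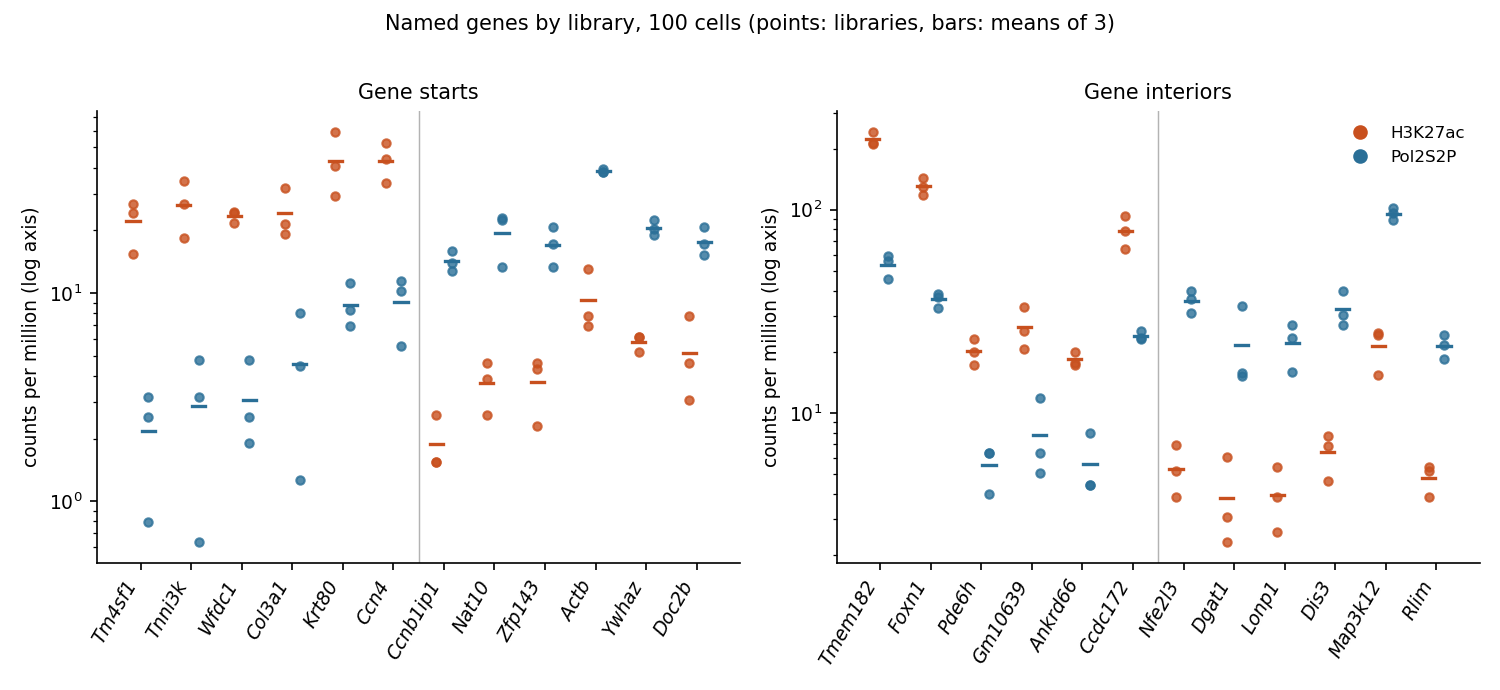
CPM in each of the 6 libraries, on log axes, at 12 gene starts (left) and 12 gene interiors (right), those with the largest folds among genes with no shared bins and 20 counts or more in each library of the group with more signal, with points for libraries and bars for means of 3. Genes left of the grey line in each panel are higher in H3K27ac and genes right of it higher in Pol2S2P, and no gene shown has overlapping groups.

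Some starts shared their 3 bins with the annotated downstream end of another gene. Of 62 such tested starts, 2 (3.23%) were higher in H3K27ac and 15 (24.2%) in Pol2S2P, with a median log2 fold of 0. Of the 1026 annotated starts without such an end, 249 (24.3%) were higher in H3K27ac and 40 (3.9%) in Pol2S2P, with a median of 0.45. The difference between these sets was not tested. None of the 12 starts named by rank had a neighbour's annotated end in its bins. Only these 3 bins were searched, so a neighbour's end lying further out would not be seen.

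Gene interiors gave more counts per gene and a wider test. Of 9764 interiors tested, 3667 (37.6%) differed, 883 (9.04%) higher in H3K27ac and 2784 (28.5%) higher in Pol2S2P, with a median log2 fold of -0.31. The split again followed the scaling. TMM moved the median to -0.01 and called 2918, of which 1650 were higher in H3K27ac, and DESeq2 called 2075, of which 1285 were. Folds at interiors are therefore read against the median of -0.31.

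Tmem182, a muscle membrane protein, had the largest H3K27ac excess of any interior that met the count rule. Its 47 interior bins held 210, 242 and 214 CPM of H3K27ac and 58.9, 45.7 and 55.8 CPM of Pol2S2P. The groups were far apart, with a log2 fold of 2.06 (SE 0.13, adjusted p = 3.55e-22). The excess was uneven along the gene: from 30 bins past the start to the end, H3K27ac averaged 7.85 ± 1.21 CPM per bin and Pol2S2P 1.69 ± 0.287. Before that point they averaged 2.28 ± 0.278 and 0.662 ± 0.169 (SD, n = 3 each). This division was drawn after the profile was seen.

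Foxn1, a transcription factor of thymic epithelium and skin, held 143, 118 and 130 CPM of H3K27ac across its 25 interior bins. Pol2S2P held 38.6, 33 and 37.4 CPM there, a log2 fold of 1.84 (SE 0.16). Pde6h, a cone photoreceptor phosphodiesterase subunit, had a log2 fold of 1.82, Gm10639 one of 1.8, Ankrd66 one of 1.72 and Ccdc172 one of 1.7. These H3K27ac-higher interiors thus included genes known from tissues other than muscle.

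Nfe2l3, a stress-responsive transcription factor, had the largest Pol2S2P excess. Its 20 interior bins held 31, 36.2 and 39.8 CPM of Pol2S2P and 3.84, 6.93 and 5.18 CPM of H3K27ac, a log2 fold of -2.72 (SE 0.34, adjusted p = 4.92e-10). The counts lay at one side of the gene. In the last 6 bins Pol2S2P averaged 9.3 ± 1.28 CPM per bin, and in the 20 bins before them 0.9 ± 0.0508. This division was likewise drawn after the profile was seen. The annotated downstream end of the splicing factor gene Hnrnpa2b1 lies 1662 bases past Nfe2l3. The annotated end of Pcbp2 lies within the gene Map3k12, a neuronal stress kinase, but outside the interior bins counted. Those bins held 102, 88.9 and 96.4 CPM of Pol2S2P against 24.6, 15.4 and 24.2 CPM of H3K27ac.

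Dis3, the exosome ribonuclease, had no neighbour's annotated end within 10 kb. Its 18 interior bins held 39.9, 30.5 and 27.1 CPM of Pol2S2P and 7.68, 4.62 and 6.9 CPM of H3K27ac, a log2 fold of -2.34 (SE 0.33). Rlim, a ubiquitin ligase encoded on the X chromosome, likewise had none, with a log2 fold of -2.13. Dgat1, which makes triglycerides, had a log2 fold of -2.47 and no such end within 10 kb. Lonp1, a mitochondrial protease, had a log2 fold of -2.44, and the annotated end of Micos13 lies 6845 bases outside that gene. The Dgat1 libraries were uneven, with 15.8, 15.2 and 33.5 CPM of Pol2S2P. Here and elsewhere only annotated ends were searched, so the end of a gene with no annotated start would not be seen. These interiors may therefore lie near a neighbour's end all the same.

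Interiors were also grouped by the H3K4me3 counts at the gene's start. Pol2S2P was higher at 10.5% of the 2008 tested interiors whose start held under 10 H3K4me3 counts, at 12.9% of those with 10 to under 50, at 28.9% with 50 to under 200 and at 47.7% of the 3147 with 200 or more. The share higher in H3K27ac was 8.27%, 14.2%, 8.87% and 7.24% over the same classes. The presence of a neighbour's annotated end moved with these shares. Among interiors with under 10 H3K4me3 counts at the start, Pol2S2P was higher at 20.1% of the 563 with such an end within 10 kb and at 6.78% of the 1445 without. With 200 counts or more the shares were 49.1% and 46.7%.

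**Figure D3:**
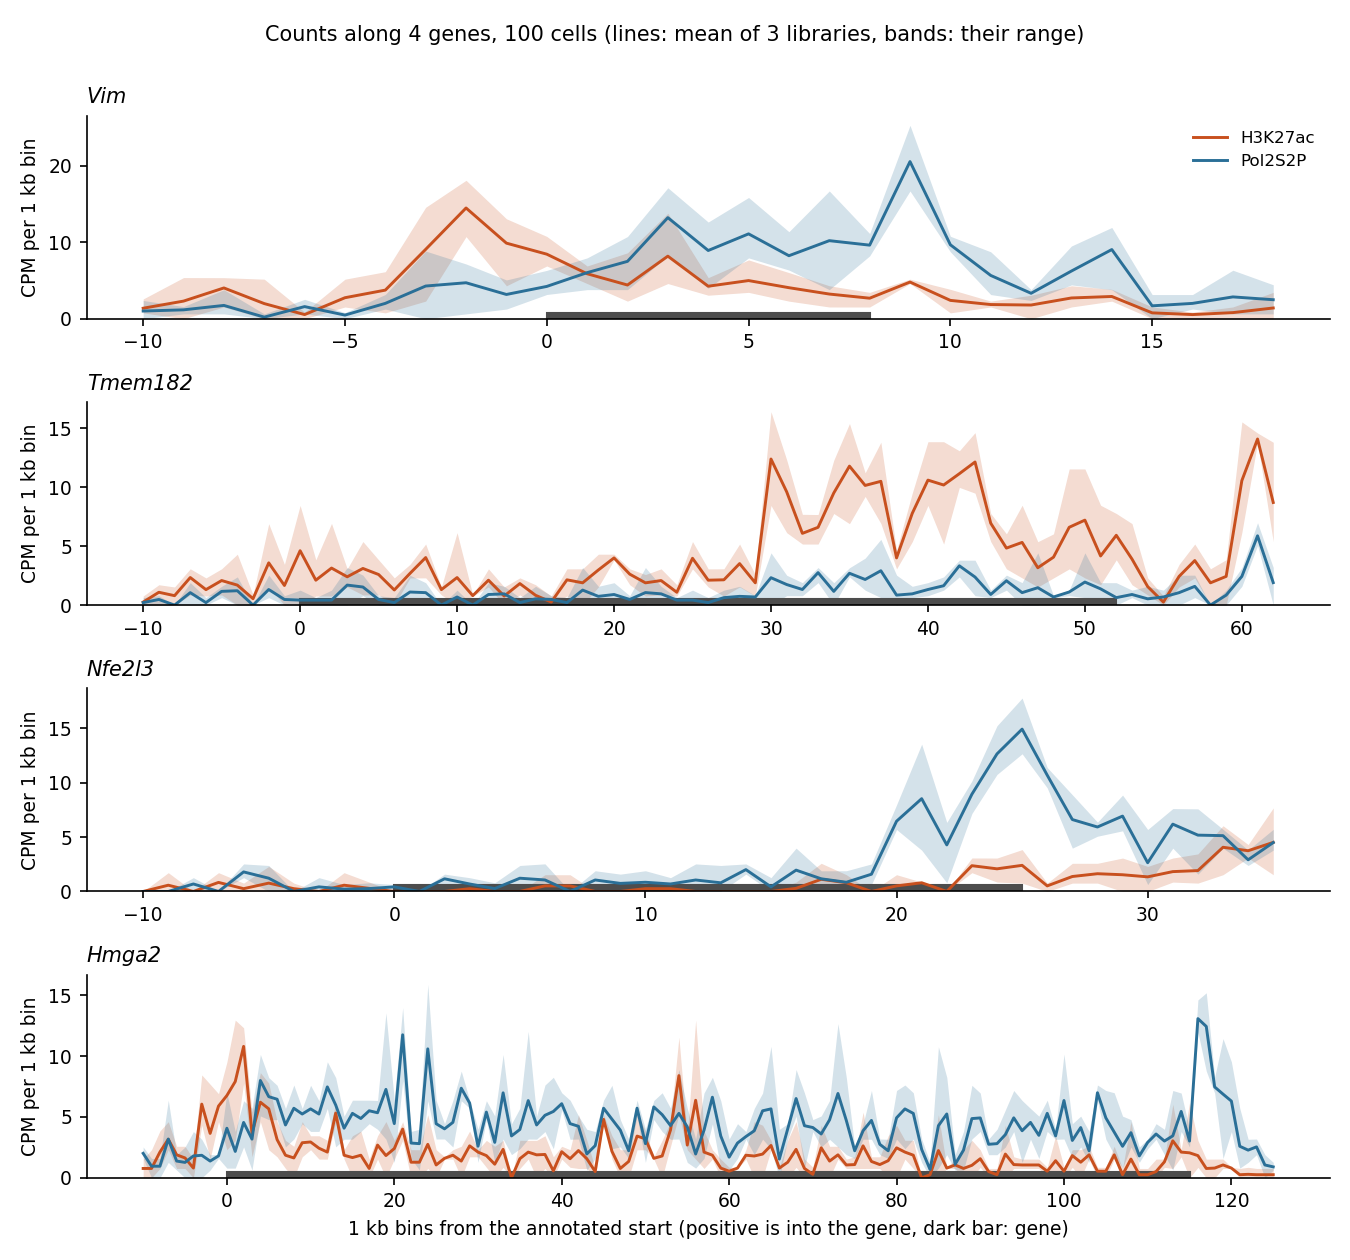
Mean CPM per 1 kb bin of 3 H3K27ac libraries and 3 Pol2S2P libraries (lines, with bands for their range) along Vim, Tmem182, Nfe2l3 and Hmga2, with the x axis in bins from the annotated start and a dark bar for the gene. H3K27ac is higher at the starts of Vim and Hmga2 and in the later part of Tmem182, and Pol2S2P is higher inside and past the ends of Vim and Hmga2 and at the end of Nfe2l3.

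Start and interior could be compared within 884 genes tested at both. H3K27ac was higher at both in 95 genes, and Pol2S2P was higher at both in 25. In 26 genes H3K27ac was higher at the start and Pol2S2P in the interior, and the opposite combination was found in 0. That imbalance rests on the scaling to library totals, under which the medians of starts and interiors stand on opposite sides of 0: the 2 combinations held 4 and 2 genes with TMM and 0 and 1 under DESeq2. Genes higher in H3K27ac at both numbered 46 with TMM and 12 under DESeq2. Leaving out the second H3K27ac library gave 14 and 1 for the mixed combinations and 50 for H3K27ac at both. Start and interior are not always separate counts, because a start chosen among several can lie inside the gene. The start bins of Lmna, for example, lie wholly within its interior bins. How many of the 884 genes share bins in this way was not counted.

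Hmga2, a chromatin protein of proliferating mesenchymal cells, was 1 of the 26. Its interior had a log2 fold of -1.28 (SE 0.08, adjusted p = 3.79e-21), and that call was kept under every alternative run for interiors. Its start had one of 1.29 (SE 0.39, adjusted p = 0.0119), which lost its call with TMM, at an adjusted p of 0.127, and without the second H3K27ac library, at 0.0795, the third H3K27ac library, at 0.14, or the third Pol2S2P library, at 0.0638. In the 5 bins around the start H3K27ac held 6.3, 6.93 and 7.77 CPM per bin and Pol2S2P 3.29, 3.17 and 1.91. In the 5 bins past the downstream end the order was the reverse, with 1.23, 1.23 and 0.69 CPM per bin of H3K27ac and 9.24, 11.4 and 7.01 of Pol2S2P. The groups did not overlap in either place.

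Vim showed the same order within a gene of 8516 bases. Its start had a log2 fold of 0.86 (SE 0.3, adjusted p = 0.0295) and its interior one of -0.95 (SE 0.27, adjusted p = 0.00365). With TMM both calls were lost, at adjusted p of 0.374 and 0.0617, the start call was also lost without 5 of the 6 libraries in turn, and the interior call was lost without the second Pol2S2P library, at 0.0696. In the 2 bins past its end Pol2S2P held 17.4, 15.2 and 12.7 CPM per bin and H3K27ac 2.69, 4.23 and 3.88, with no overlap. Wnk1, a kinase of ion transport, kept both calls with TMM and stood at 1.83 at the start and -1.11 inside, although DESeq2 did not call its start (adjusted p = 0.143). Txn1, the cytosolic thioredoxin, stood at 1.46 and -1.57 and lost its start call with TMM, at 0.0629. These examples, and the stretches of Hmga2 and Vim, were chosen after their values were seen.

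**Figure D4:**
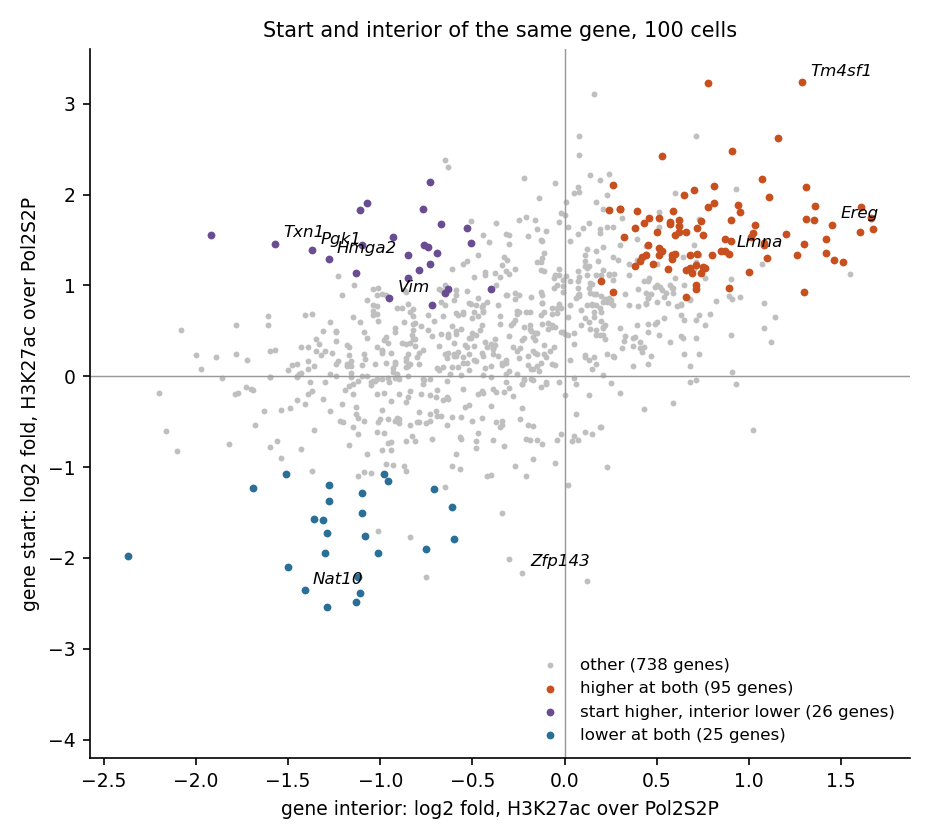
Log2 fold of H3K27ac over Pol2S2P at the start (vertical) and in the interior (horizontal) for the 884 genes tested at both, coloured by the calls. The 95 genes higher in H3K27ac at both lie at the upper right, the 26 with a higher start and a lower interior at the upper left, the 25 lower at both at the lower left, and no gene with both calls lies at the lower right; with TMM the higher-start, lower-interior class held 4 genes and its opposite 2.

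Windows of 10 kb covered the genome outside genes as well. Of 36058 windows tested, 10705 (29.7%) differed, 6103 (16.9%) higher in H3K27ac and 4602 (12.8%) higher in Pol2S2P, with a median log2 fold of 0. The majority turned with the window size: 5 kb windows gave 5740 and 2088 calls, and 50 kb windows 3681 and 4501. Among the 8668 tested windows outside genes, 3113 (35.9%) were higher in H3K27ac and 324 (3.74%) in Pol2S2P. Part of the latter lay close to genes. Within 10 kb past an annotated downstream end 174 (16.9%) of 1031 windows were higher in H3K27ac and 179 (17.4%) in Pol2S2P. In the other 7637 windows outside genes these numbers were 2939 (38.5%) and 145 (1.9%), and the median log2 fold was 0.81.

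Windows inside genes held more calls for Pol2S2P. Of 2540 tested windows with an annotated downstream end and no start, 136 (5.35%) were higher in H3K27ac and 918 (36.1%) in Pol2S2P, with a median of -0.77. The other 17092 windows in gene bodies gave 2023 (11.8%) and 2670 (15.6%). Windows holding a gene start were nearly even, with 831 (10.7%) and 690 (8.89%) of 7758. A window could pass the count filter through 1 group alone, so these shares describe the tested windows only.

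The top H3K27ac windows lay at chr3:151442386-151452385 in Adgrl4, an adhesion receptor, at chr9:6454976-6464975 in Pdgfd, a platelet-derived growth factor, at chr4:64531741-64541740 between genes and at chr14:101802586-101812585 in Lmo7, an actin-associated protein. The Adgrl4 window held 17.7, 29.2 and 26.8 CPM of H3K27ac and 1.9, 1.27 and 3.98 CPM of Pol2S2P, a log2 fold of 3.37 (SE 0.46). The intergenic window lay 490 kb from the nearest gene start, that of the matrix protein tenascin C (Tnc), and held 16.9, 33.1 and 38.8 CPM against 3.16, 3.17 and 3.98 CPM, a log2 fold of 3.08. All coordinates are on GRCm38.

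The top Pol2S2P windows described here fell in the class with a gene start or marked end. The largest, at chr8:123179501-123189500, contained the annotated start of Dpep1, a membrane dipeptidase, and held 22.8, 20.3 and 35 CPM of Pol2S2P against 1.54, 0.77 and 3.45 CPM of H3K27ac. Its log2 fold was -3.72 (SE 0.48, adjusted p = 4.67e-08). The window at chr19:6374976-6384975 held the downstream end of Sf1, a splicing factor, beside the start of muscle glycogen phosphorylase (Pygm), with a log2 fold of -3.25. That at chr4:156246366-156256365 held the downstream end of Noc2l, a ribosome assembly and histone-binding protein, and both the start and the downstream end of Samd11, at -3.21.

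Gene groups were described by lists, whose levels below cover every member and whose calls cover the tested members only. At starts, extracellular matrix genes and their receptors held 9.22 ± 0.599 times the genome mean of H3K27ac and 4.31 ± 0.312 of Pol2S2P over all 27 members (SD, n = 3 each). Of 13 members tested 6 were higher in H3K27ac and 0 in Pol2S2P, beside 23.7% and 5.62% of all starts. Their median log2 fold was 1.09 against 0.44 for all, and 2 were called with TMM and 1 under DESeq2. Col1a2, a collagen chain, held 10.8, 17.7 and 8.63 CPM of H3K27ac and 3.8, 1.9 and 2.39 CPM of Pol2S2P. Its call (log2 fold 2.16) was lost under DESeq2, at an adjusted p of 0.0731, and without the second H3K27ac library, at 0.0833. Sparc, a collagen-binding protein, had a log2 fold of 1.34 and lost its call with TMM, at an adjusted p of 0.0569.

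Genes of the actin cytoskeleton and adhesion held 10.6 ± 1.11 times the genome mean of H3K27ac at their 25 starts and 7.26 ± 0.237 of Pol2S2P. Of 17 tested, 8 were higher in H3K27ac and 1, the ambiguous end of Actb, in Pol2S2P, beside 23.7% and 5.62% of all starts. With TMM 1 was called in each direction, and under DESeq2 0 in H3K27ac and 1 in Pol2S2P. Tln1, which links integrins to actin and shares its start bins with another gene, had a log2 fold of 1.84 and lost its call under DESeq2, at an adjusted p of 0.079. Lmna, the nuclear lamin, had 1.35 and lost its call with TMM, at 0.0525. Immediate early and serum response genes held 8.73 ± 1.01 and 4.05 ± 0.177 times the genome mean at their 20 starts. All 7 tested were higher in H3K27ac, beside 23.7% of all starts, and their median log2 fold was 1.56. With TMM 3 were called and under DESeq2 2.

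Myc, the growth regulator, held 26.9, 37.7 and 41.4 CPM of H3K27ac and 12.7, 10.2 and 11.2 CPM of Pol2S2P at its marked end, a log2 fold of 1.63 (SE 0.29). At its opposite end Pol2S2P held 26.1 ± 7.28 CPM and H3K27ac 15.1 ± 3.88 (SD, n = 3 each). Fosl2, an AP-1 subunit, had a start fold of 2.64 on the log2 scale, with uneven H3K27ac libraries of 15.4, 8.47 and 29.3 CPM. Its interior had a fold of 0.08 and no call. The starts of Hox genes, which set position along the body, gave 5 of 5 tested higher in H3K27ac, out of 33 members and beside 23.7% of all starts. With TMM 1 was called and under DESeq2 0. Hoxc9, Hoxc10 and Hoxc11, all among the 5, are neighbours on chromosome 15 and were placed by their marked ends. The chosen end of Hoxc11 held 590 H3K4me3 counts and the opposite end 452. The 5 are therefore not separate loci.

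Myogenic regulators held 4.14 ± 0.328 times the genome mean of H3K27ac at their 16 starts and 2.08 ± 0.156 of Pol2S2P, but only 3 could be tested. Myf5 held 11.5, 16.9 and 12.9 CPM of H3K27ac and 0.633, 1.9 and 1.59 CPM of Pol2S2P. The libraries did not overlap, and the log2 fold was 3.26 (SE 0.55, adjusted p = 6.44e-05). Mef2d, a partner of the myogenic factors, had a log2 fold of 1.43 and lost its call with TMM, at an adjusted p of 0.0874. Contractile genes held 1.71 ± 0.267 and 1.33 ± 0.173 times the genome mean, and 0 of their 23 starts had the counts to be tested.

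Few starts of genes that run the cell's basic machinery were called. Ribosomal protein genes held 7.48 ± 0.227 times the genome mean of H3K27ac and 8.08 ± 0.227 of Pol2S2P at their 32 starts. Of 18 tested, 0 were higher in H3K27ac and 1, Rpl8, in Pol2S2P, beside 23.7% and 5.62% of all starts, and their median log2 fold was -0.03 beside 0.44 for all. Rpl8 was placed by a marked end with 469 H3K4me3 counts against 438 at the opposite end. Splicing factors held 6.13 ± 0.886 and 6.51 ± 0.6 over 25 starts, with 0 calls among 12 tested, beside the same 23.7% and 5.62%. Their median of 0.11, beside 0.44 for all, became -0.34 with TMM, beside -0.01 for all. Gapdh, the glycolytic enzyme, held 10.8, 8.47 and 15.5 CPM of H3K27ac and 4.43, 11.4 and 6.37 CPM of Pol2S2P. Its groups overlapped and it had no call (log2 fold 0.62, adjusted p = 0.294).

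Inside genes the basic machinery held more calls for the polymerase. Splicing factor interiors held 2.7 ± 0.122 times the genome mean of H3K27ac and 6.19 ± 0.258 of Pol2S2P over 22 genes (SD, n = 3 each). Of 21 tested, 16 were higher in Pol2S2P and 0 in H3K27ac, beside 28.5% and 9.04% of all interiors, and the median log2 fold was -1.18 against -0.31. With TMM 11 and under DESeq2 8 were higher in Pol2S2P. Hnrnpd, an RNA-binding protein, held 60.1, 59 and 60.5 CPM of Pol2S2P and 21.5, 19.2 and 13.8 CPM of H3K27ac across 18 bins, a log2 fold of -1.7 (SE 0.23). Tra2b, a splicing activator, had the same fold.

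Polymerase II and elongation genes gave 16 of 21 tested interiors higher in Pol2S2P and 0 in H3K27ac, beside 28.5% and 9.04% of all, with levels of 1.81 ± 0.0195 and 3.46 ± 0.0123 times the genome mean for H3K27ac and Pol2S2P. With TMM 12 and under DESeq2 10 were called. Xrn2, the nuclease that ends transcription, held 103, 97.1 and 90 CPM of Pol2S2P and 33.8, 36.9 and 26.8 CPM of H3K27ac, a log2 fold of -1.57 (SE 0.18). Cell cycle genes gave 6 of 14 higher in Pol2S2P and 0 in H3K27ac, beside the same 28.5% and 9.04%, against 3 and 1 with TMM. Top2a, which untangles replicated DNA, had a log2 fold of -1.62, and the kinase gene Cdk6 had -0.85 inside although its start had 1.08. The start call of Cdk6 (adjusted p = 0.0422) was lost without any 1 of the 6 libraries. The start bins of Cdk6 also overlap its interior bins. Housekeeping interiors gave 5 of 8 in Pol2S2P and 0 in H3K27ac, beside the same shares, and 2 and 0 with TMM, among them the glycolytic Pkm at -1.43.

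Matrix, adhesion and signalling genes had calls in both directions inside. Extracellular matrix interiors gave 5 higher in H3K27ac and 6 in Pol2S2P of 24 tested, beside 9.04% and 28.5% of all interiors, so the Pol2S2P count is near the background. With TMM the balance was 11 to 3. Col4a2, a basement membrane collagen, held 336, 339 and 291 CPM of H3K27ac and 160, 171 and 126 CPM of Pol2S2P, a log2 fold of 1.07 (SE 0.1). Fn1, fibronectin, went the other way with 81.4, 77 and 56.1 CPM of H3K27ac and 177, 137 and 143 CPM of Pol2S2P, at -1.08 (SE 0.14). The hyaluronan receptor Cd44 stood at -0.8 and the integrin subunit Itgb1 at -0.88.

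Growth factor signalling interiors gave 9 higher in H3K27ac and 2 in Pol2S2P of 23 tested, beside 9.04% and 28.5% of all interiors, and 12 and 1 with TMM. Smad3, which carries TGF-beta signals to the nucleus, held 115, 113 and 129 CPM of H3K27ac and 55.7, 59.7 and 59.7 CPM of Pol2S2P, a log2 fold of 1.03 (SE 0.15). Wwtr1, the Hippo pathway coactivator TAZ, had 0.88 and Ereg, an EGF receptor ligand, 1.45. Among contractile genes Tnnt2, a troponin, stood at 1.4. The giant sarcomere genes Ttn and Neb stood at -0.69 and -0.44. With TMM the calls of Ttn (adjusted p = 0.0826) and Neb (0.607) were lost.

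**Figure D5:**
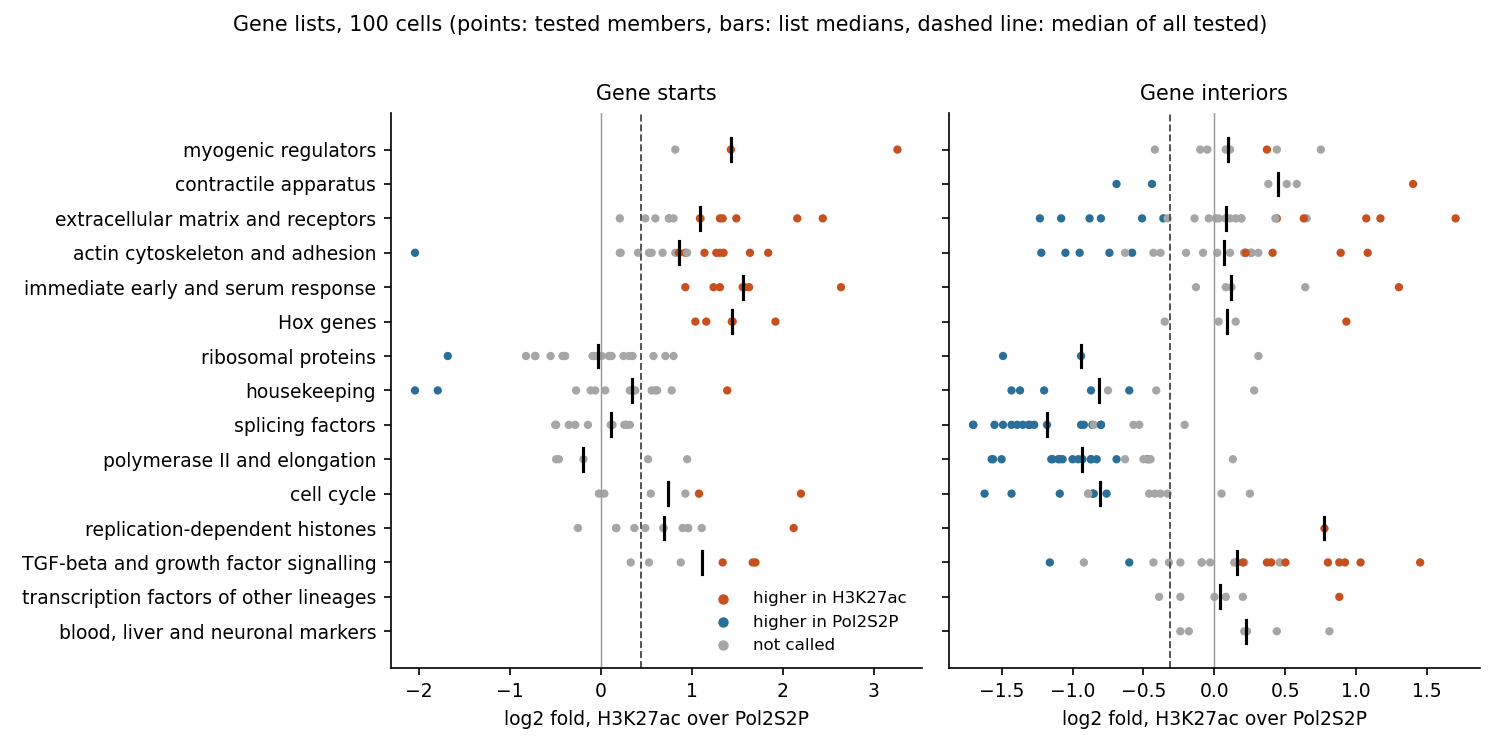
Log2 fold of H3K27ac over Pol2S2P for the tested members of 15 gene lists at starts (left) and interiors (right), with black bars for list medians and a dashed line for the median of all features tested (0.44 and -0.31). Points are coloured by the call, and the medians of the splicing and polymerase lists lie left of the dashed line inside genes while those of the extracellular matrix, immediate early and Hox lists lie to its right at starts.

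The same comparison in 1000 cells used other libraries, each with 2906302 to 3645778 counts. There 1299 (18.3%) of 7104 starts were called, 896 (12.6%) higher in H3K27ac and 403 (5.67%) in Pol2S2P, and 6081 (48%) of 12662 interiors, 1256 (9.92%) and 4825 (38.1%). Of the 321 starts higher in H3K27ac in 100 cells, 260 were called the same way in 1000 cells, which is 81% of the 100-cell list and 56.4% of the 461 so called there among starts tested in both. The background share so called was 34.1%. Of the 76 starts higher in Pol2S2P, 63 were called again, which is 82.9% of that list and 60% of the other, beside a background of 7.77%. Of these 397 starts 0 were called in the opposite direction.

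Most interiors called in 100 cells were called again in 1000 cells, beside background shares unlike those of starts. Of 883 higher in H3K27ac, 780 (88.3%, and 65.5% of the 1000-cell list) were called again, and of 2784 higher in Pol2S2P, 2538 (91.2%, and 59.3%). The background shares were 12.2% and 43.8%, and 1 interior was called in the opposite direction. The features called in 100 cells had smaller folds in 1000 cells, with medians of 1.49 against 1.07 on the log2 scale for the H3K27ac-higher starts. These features had been selected on the 100-cell values. Tm4sf1 went from 3.24 to 1.87, Myf5 from 3.26 to 1.19, Col3a1 from 2.44 to 2.05 and Nat10 from -2.35 to -1.92.

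A test of the difference between 100 and 1000 cells called 0 of 6487 starts and 0 of 12433 interiors in edgeR, with 313 and 624 at an unadjusted p under 0.05, and 0 of each with TMM and in DESeq2. With the replicate number as a block it called 1 start, that of the cohesin release factor Wapl, at an adjusted p of 0.023 against 0.0915 without the block. The Wapl start had too few counts to be tested in 100 cells alone, and its log2 fold in 1000 cells was -0.2. Thinned to the depth of the shallowest 100-cell library, the 1000-cell libraries called 366 starts (298 higher in H3K27ac) of 1109 tested and 4030 interiors (930 higher in H3K27ac) of 9553. The 100-cell libraries had called 397 and 3667. The median log2 fold at tested starts was 0.45 in the thinned 1000-cell libraries and 0.11 without thinning, beside 0.44 in 100 cells.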

How the data were processed

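The submitters' processing notes name HISAT2 2.1.0, deepTools 3.3.1, bcl2fastq and the build GRCm38, without saying what each was used for. The authors deposited raw counts per 1 kb bin in 1 table of 2728634 bins. Of its columns 28 matched a sample's labels and 4 were not used. Duplicate handling, strand and how the antibodies of the dual staining were told apart are not given in the sources used here.

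Computed here, counts were summed over gene starts, interiors and windows of the 2631639 bins on the autosomes and X, less 9 bins above 50 times the mean in every group. Gene models and promoters came from RefSeq GRCm38.p6. Of 21631 protein-coding genes 455 had no start, 2761 had several (the one with most H3K4me3 counts was used), and 19.7% of starts and 8.2% of interiors shared bins with another gene, so their counts cannot be told apart. The library total was the only scaling. Tests used edgeR 4.0.16 (quasi-likelihood, its default count filter, Benjamini-Hochberg adjustment, threshold 0.05), with TMM and DESeq2 1.42.0 as alternatives, and were tested on simulated data. Shares of counts used exact permutation tests. Other tools were R 4.3.3, Python 3.11.15, numpy 2.4.6, pandas 2.3.3, scipy 1.17.1 and matplotlib 3.10.9.

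Libraries held 1158754 to 1580089 counts, and errors are spreads between 3 libraries. Replicates differed beyond sampling noise (chi-square per degree of freedom 1.686 to 1.801 over 36205 windows). Same-numbered H3K27ac and Pol2S2P libraries, which the titles give as 1 dual staining, deviated together. Their correlations were 0.118, 0.109 and 0.122 against -0.071 to -0.045 for other pairs. The numbers were taken to pair the libraries in the replicate block, which was run as an alternative. The main tests and the permutation tests did not use this pairing.

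Named by rule were the 6 starts and 6 interiors (4 windows) with the largest fold in each direction, called, without overlap of groups, with 20 counts or more in each library of the group with more signal and, for genes, no shared bins, then up to 4 members of each of 15 lists by adjusted p, and Myod1, Myf5, Col3a1, Actb and Gapdh. Genes called in opposite directions at start and interior were picked after their values were seen. Some features that met these rules are not reported here. The members and lists were chosen with earlier results of these data known.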

Additional observations from a re-analysis of the deposited data

How the results depend on the processing

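The share differences between targets kept their direction under all alternatives run except 1. The interior difference was -5.46 percentage points over whole gene spans and -4.06 over interiors sharing no bin, the concentration difference was 4 over 1 kb bins, and the flank ratio difference was -0.321 in genes of at least 50 kb and -0.401 in genes with at least 50 H3K4me3 counts at the start. The start difference reversed to -0.963 with both gene ends. Leaving out 1 library gave -4.67 to -4.45 for interiors, 0.331 to 0.428 for starts, 3.45 to 3.64 for concentration and -0.356 to -0.337 for the flank ratio. As pairs in a replicate block these differences had an exact sign-flip p of 0.25, the smallest 3 pairs can give.

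Start calls numbered 227 with TMM, 122 under DESeq2, 842 with bins within 2.5 kb, 675 with both gene ends (249 higher in H3K27ac and 426 in Pol2S2P) and 233 to 365 with 1 library left out. Interior calls numbered 2075 under DESeq2 and 3038 to 3201 with 1 library left out, and window calls 6532 and 8152 to 8832. Windows of 5 kb gave 7828 calls, 73.3% of them higher in H3K27ac, and windows of 50 kb gave 8182, 45% of them. In 1000 cells thinning gave 366 start and 4030 interior calls, and leaving out 1 library gave 956 to 1117 and 5469 to 5711. With the replicate block the 100-cell calls numbered 431 starts, 4031 interiors and 11979 windows. The block added calls for the start of Runx1 (0.88, adjusted p = 0.0484) and the interiors of Myl4 (0.6, adjusted p = 0.0195) and Apob (0.8, adjusted p = 0.0437), gave 1 call for the difference between 100 and 1000 cells, and changed no other named call. A marked end for every gene, annotated starts only and the H3K4me3-marked flank genes were chosen after seeing the data.

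Among the features reported, log2 folds that changed sign belonged to genes without a call or to starts counted with both gene ends. At starts these were Hnrnpa1 (-0.17 with TMM, -0.21 under DESeq2, -0.22 within 2.5 kb, -0.59 with both ends), Cdk12 (0.06 within 2.5 kb) and, with both ends, Cdk4 (-0.01), Gapdh (-0.09), Hmga2 (-0.17), Vim (-0.62) and Wnk1 (-0.28). At interiors they were Maff (0.17), Tbx5 (0.06), Rbfox3 (0.06) and Syt1 (0.12) with TMM, and 0.16, 0.06, 0.06 and 0.12 under DESeq2. Leaving out 1 library gave ranges of -0.07 to 0.55 for Rpl19, -0.15 to 0.39 for Fosl2, -0.25 to 0.29 for Hoxb3, -0.05 to 0.22 for Col3a1, -0.03 to 0.36 for Hoxc4 and -0.34 to 0.21 for Maff. Whole spans gave Rpl19 -0.07, and a 5 kb inset gave Fosl2 -0.49, Hoxb3 -0.2 and Col3a1 -0.24. The cause was not tested for any of these. Genes placed by a marked end could not be refitted with annotated starts only.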

Other observations

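The balance of calls inside genes moved with gene length. Among the 987 tested interiors of genes of at least 200 kb, 19.9% were higher in H3K27ac and 18.4% in Pol2S2P, with a median log2 fold of -0.04. Among the 1187 tested interiors of genes of 5 to 20 kb the shares were 6.91% and 25.8%. The count filter passed 18.3% of the 6473 genes of 5 to 20 kb and 99.7% of the 990 of at least 200 kb. The length classes therefore differ in how far they were selected by signal. The difference between length classes was not tested.

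Apob, which encodes the main protein of liver lipoproteins, held 9, 4 and 14 counts of H3K27ac at its start and 0, 1 and 2 of Pol2S2P in these myoblast libraries. Its start had too few counts to be tested, and its interior had a log2 fold of 0.81 with no call, although it was called with TMM (1.11, adjusted p = 0.00893), under DESeq2 (1.12, adjusted p = 0.0282), over the whole gene span (1.12, adjusted p = 0.00176) and with the replicate block (0.8, adjusted p = 0.0437). Among the other liver markers, Alb held 3 and 2 counts at its start and Ttr 3 and 9.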
